A study of Mus musculus with 8 samples.

Results

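The transcript level of *Trp53*, which encodes the tumour suppressor p53, and of 9 genes that p53 switches on in arrest, feedback and stress was examined in *Mettl3*-deficient and control mouse retinas by bulk RNA-seq. These 10 genes were taken by symbol from the 54532 genes of the count table, and all 10 passed the filter on low counts that left 17998 genes for testing. The 4 *Mettl3*-CKO samples are retinas of Six3-Cre+; Mettl3floxed/floxed pups, in which Cre is driven by *Six3* in retinal progenitor cells (RPCs), and the 4 control samples are retinas labelled only as control, with no alleles or litter given. The sample labels put the pups at postnatal day 7, whereas the methods text gives an earlier day. Neither says how many retinas or animals went into a sample, so the p-values measure the spread between these samples, which may be partly technical.

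p53 is a transcription factor that is held at a low level because MDM2, a ubiquitin ligase, marks it for degradation. When DNA damage or another stress releases it, p53 raises *Cdkn1a*, whose product p21 blocks cyclin-dependent kinases, and it also raises *Mdm2*, which closes a negative feedback loop. Much of this control acts on p53 protein, so *Trp53* mRNA is not by itself a measure of p53 activity. In the developing retina p53 is best known for the arrest and death of damaged progenitors.

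Because p53 acts through DNA sites, the stretch around each transcription start was inspected first, from RefSeq windows on GRCm38.p6 that run from 250 bases before to 50 bases after a start. Of the 10 genes, 8 had at least one window, 10 windows in all; *Trp53inp1* and *Zmat3* had none. Each window was searched for the p53 response element consensus, a pair of 10-letter p53 half-sites separated by 0 to 13 bases. The half-site consensus reads the same on both strands, so a single search covers them. The first *Cdkn1a* window (chr17:29090729-29091028, plus strand) held a pair with no mismatch, with a 12-base spacer, from 73 to 42 bases before the start (chr17:29090906-29090937). Such a pair occurred in 24 of all 32851 windows (0.0731%). The second half-site of the *Cdkn1a* pair is followed directly by tgacatgttc, which fits the half-site consensus except at its first letter. That window thus also held a pair with no spacer and 1 mismatch. *Ccng1* had the closest pair of the other genes, with 1 mismatch over the 20 consensus positions and no spacer, at chr11:40755462-40755481 on the minus strand. A pair with at most 1 mismatch was present in 1.09% of windows. The best pair had 2 mismatches in *Aen* (10.1% of windows do as well or better), 3 in *Trp53* (45.1%), and 4 in *Mdm2*, *Phlda3*, *Eda2r* and *Sesn2* (89.3%), so these last 5 matches are common ones. The second *Cdkn1a* window, at a later start, had 5 mismatches at best (99.5%). The sequences are shown because, within these windows, they separate the 2 genes with a near-complete element from the rest. Capitals mark the half-sites of the pair with the fewest mismatches, so the spacer-free *Cdkn1a* pair is only partly in capitals. All are written 5′ to 3′ on the gene's strand.
Cdkn1a promoter: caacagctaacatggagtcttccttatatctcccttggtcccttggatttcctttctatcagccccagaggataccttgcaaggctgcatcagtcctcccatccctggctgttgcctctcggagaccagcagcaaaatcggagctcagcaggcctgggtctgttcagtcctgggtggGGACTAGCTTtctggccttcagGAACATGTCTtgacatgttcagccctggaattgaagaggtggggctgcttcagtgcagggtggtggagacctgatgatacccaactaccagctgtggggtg
Ccng1 best pair: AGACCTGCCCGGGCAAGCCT
Aen best pair: GGGCTTGTCCgggcaagGAGCTTCCGC
Trp53 best pair: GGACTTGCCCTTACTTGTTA
Mdm2 best pair: GAACTTGCCTagCGACCATTGC
Phlda3 best pair: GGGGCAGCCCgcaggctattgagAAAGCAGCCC
Eda2r best pair: AGATTAGGCTaGATCTAACTT
Sesn2 best pair: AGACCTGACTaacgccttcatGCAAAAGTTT
A match is a description of letters and not evidence of binding, and elements outside these windows, such as those in introns, were not searched. The *Phlda3* window ends with gaacatgt, which fits the first 8 letters of a half-site, so a site that runs past its end could not be scored.

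Total counts ranged from 16227095 to 20281517 per sample, so 3 counts, taken as the floor for detection, correspond to between 0.147 and 0.184 CPM, which are counts scaled to a fixed library size with edgeR's TMM factors. Group levels are means with SD (n = 4 each), and log2 fold changes are *Mettl3*-CKO against control from edgeR's quasi-likelihood test, with their standard error (SE), adjusted by the Benjamini-Hochberg method over all 17998 genes and called at an adjusted p-value under 0.05. *Mettl3* itself, counted over the whole gene, was at 21.1, 29.6, 21.3 and 24.3 CPM across *Mettl3*-CKO replicates 1 to 4 and between 29.3 and 33.8 CPM in controls, with replicate 2 of the mutants overlapping the controls (log2 fold change -0.38, adjusted p = 0.0602). Levels of the 10 rod genes listed ranged widely in controls, from 11.6 ± 4.11 CPM (*Pde6a*) to 1087 ± 71.3 CPM (*Nr2e3*), with *Nrl* at 765 ± 145 CPM. Markers of some cell types moved with the groups. The summed marker levels of RPCs, Müller glia, cones, bipolar, amacrine, horizontal and ganglion cells, microglia and pericytes overlapped between them. The counts of marker genes called are to be read beside 6.49% called higher and 4.05% lower over all genes tested. Of 12 proliferation genes, 5 were called higher, with log2 fold changes over the list from 0.18 (*Ccna2*) to 0.98 (*Mki67*), and their summed level was 2230 to 2955 CPM in *Mettl3*-CKO samples against 1680 to 2098 CPM in controls. Of 10 RPC genes, 3 were called higher. Of 10 rod genes, 6 were called lower, with log2 fold changes over the list from -1.09 (*Pde6b*) to 0.08 (*Pde6a*) (summed level 1657 to 3042 CPM against 3163 to 4881 CPM), as were 7 of 9 tested endothelial genes, 2 of 5 astrocyte genes and 3 of 7 tested pigment epithelium genes. The endothelial sums overlapped between the groups (538 to 636 against 564 to 656 CPM). However, most of each sum was *Kdr*, at 558 ± 41.1 against 549 ± 59.9 CPM and not called. The median log2 fold change of the tested endothelial genes was -1.34. Of 3 tested erythrocyte genes, 2 were called lower, and the summed level of all 5 listed was 4.29 to 7.18 CPM against 13.9 to 26.3 CPM. Lens genes summed to 3159 CPM in control replicate 4 and to at most 68.4 CPM elsewhere. In these bulk samples, fewer cells of a type and less RNA per cell cannot be told apart, and the part of these shifts in the results below was not tested.

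Of the 10 genes, 7 rose in *Mettl3*-CKO retinas (*Cdkn1a*, *Eda2r*, *Phlda3*, *Aen*, *Zmat3*, *Sesn2* and *Ccng1*), none was called lower, and 3 (*Trp53*, *Mdm2* and *Trp53inp1*) were not called. Over all genes tested, 6.49% were called higher and 4.05% lower. At an unadjusted p-value under 0.05, the threshold that 24.6% of all genes passed, *Trp53* was the only further member to pass in edgeR. The median log2 fold change of the 10 was 0.72, beside -0.01 for all genes tested. In 6 of the 10 every *Mettl3*-CKO sample lay above every control, which held for 9.77% of all tested genes. The fitted rises were 4.16-fold for *Eda2r*, 2.58-fold for *Phlda3*, 2.52-fold for *Cdkn1a* and 1.83-fold for *Aen*, and between 1.62-fold and 1.65-fold for the other three. A called rise of more than 2-fold was found in 3 of the 10 and in 1.16% of all genes tested. The count of 7 was the same without control replicates 1 and 4 together, the former being the highest of the controls in rod genes and the latter carrying the lens transcripts.

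**Figure D1:**
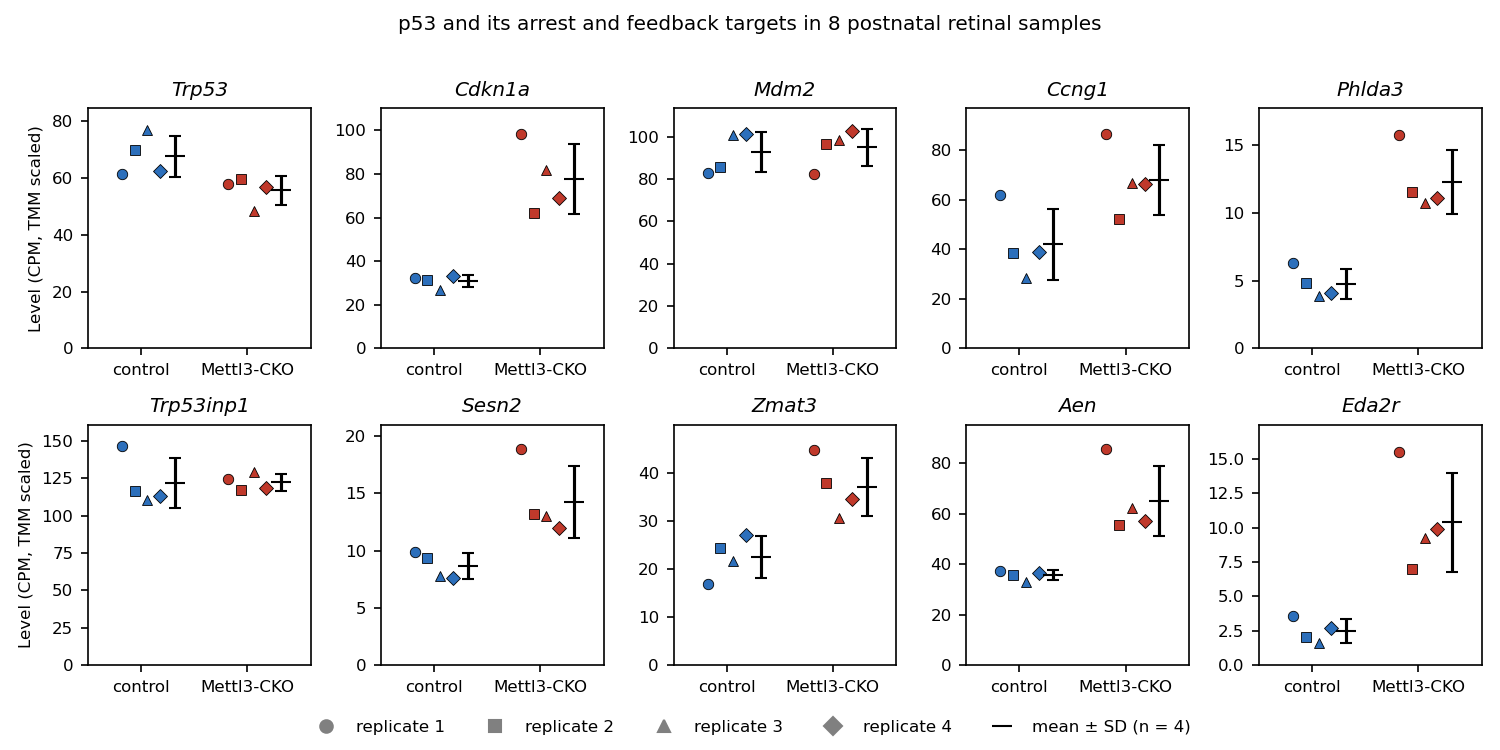
Level in CPM (y axis, from 0) of each of the 10 genes in the 4 control (blue) and 4 *Mettl3*-CKO (red) samples, with marker shapes for replicate numbers and black bars for the mean ± SD (n = 4). *Cdkn1a* lay between 62.0 and 98.3 CPM in *Mettl3*-CKO samples and between 26.9 and 33.4 CPM in controls, while *Mdm2* and *Trp53inp1* overlapped between the groups.

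*Trp53* lies on chromosome 11 from 69580359 to 69591873 (GRCm38). It was at 57.8, 59.7, 48.1 and 56.6 CPM across *Mettl3*-CKO replicates 1 to 4, against 61.2, 69.6, 76.6 and 62.4 CPM across control replicates 1 to 4. Every *Mettl3*-CKO sample was below every control, by a narrow margin, an ordering found in 7.58% of all genes tested. The means were 55.6 ± 5.11 and 67.5 ± 7.14 CPM (SD, n = 4 each), and the log2 fold change of -0.28 (SE 0.10) did not pass the adjustment (adjusted p = 0.103; two-sided exact permutation test of log2 CPM, p = 0.0286, the smallest that 4 samples against 4 allow). *Trp53* was called in only 1 of the 8 refits with a sample omitted. That was the refit without control replicate 1, with -0.32 on the log2 scale and an adjusted p of 0.0316 (edgeR). Without control replicate 3 the adjusted p reached 0.278. The processed pseudogene *Trp53-ps*, which may share reads with the gene, held 5 to 18 counts per sample.

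*Cdkn1a*, the gene of the kinase inhibitor p21, lies on chromosome 17 from 29090976 to 29100727 and is the gene whose window held the pair with no mismatch above. It was at 98.3, 62.0, 82.0 and 68.8 CPM across *Mettl3*-CKO replicates 1 to 4, against 32.1, 31.2, 26.9 and 33.4 CPM across control replicates 1 to 4. The groups were far apart, and the lowest *Mettl3*-CKO sample was well above the highest control. The means of 77.8 ± 15.99 and 30.9 ± 2.84 CPM (SD, n = 4 each) gave a log2 fold change of 1.33 (SE 0.14, adjusted p = 0.000227), which placed it at rank 18 of the 17998 genes by p-value. It was called in each of the 8 refits with a sample omitted. Per length, the ratio of the *Cdkn1a* level to the *Trp53* level was 1.93, 1.18, 1.94 and 1.38 over *Mettl3*-CKO replicates 1 to 4 and lay between 0.399 and 0.609 in controls. A gene of unknown function on the opposite strand within it held 50 counts over all samples beside 7971 for *Cdkn1a*.

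Of the feedback genes, *Ccng1* was called and *Mdm2* was not, a difference that was not itself tested. *Mdm2* (chromosome 10, 117688875 to 117710758) was at 82.2, 96.4, 98.3 and 103 CPM across *Mettl3*-CKO replicates 1 to 4, against 83.1, 85.8, 101 and 101 CPM across control replicates 1 to 4. These ranges overlapped almost fully, and the log2 fold change of 0.03 (SE 0.10, adjusted p = 0.883) changed sign when some single samples were left out. *Ccng1* (chromosome 11, 40748552 to 40755311) encodes cyclin G1, which recruits a phosphatase to MDM2. It was at 86.8, 52.2, 66.6 and 66.3 CPM across *Mettl3*-CKO replicates 1 to 4, against 62.1, 38.6, 28.3 and 38.9 CPM across control replicates 1 to 4. Control replicate 1 reached into the *Mettl3*-CKO range and was higher than *Mettl3*-CKO replicate 2. The log2 fold change was 0.69 (SE 0.21) and the adjusted p-value, 0.0497, lay just inside the threshold (two-sided exact permutation test, p = 0.0571). The call held in 2 of the 8 refits with a sample omitted, those without *Mettl3*-CKO replicate 2 and without control replicate 1 (log2 fold change 0.95), and the adjusted p-value reached 0.178 without *Mettl3*-CKO replicate 1. It was also lost with DESeq2's size factors in edgeR (adjusted p = 0.0509), so *Ccng1* is the least firm of the 7.

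*Phlda3* (chromosome 1, 135766119 to 135769136) encodes a pleckstrin homology domain protein that restrains AKT survival signalling. It was at 15.8, 11.5, 10.7 and 11.1 CPM across *Mettl3*-CKO replicates 1 to 4, against 6.31, 4.84, 3.83 and 4.05 CPM across control replicates 1 to 4. The groups did not overlap, with a log2 fold change of 1.36 (SE 0.19, adjusted p = 0.00103). *Eda2r* (chromosome X, 97333840 to 97377216) encodes a receptor of the tumour necrosis factor family. Its levels were 15.5, 6.96, 9.24 and 9.87 CPM across *Mettl3*-CKO replicates 1 to 4, against 3.58, 2.02, 1.63 and 2.72 CPM across control replicates 1 to 4, or 120 to 280 counts against 31 to 67. This was the largest rise of the 10 (log2 fold change 2.06, SE 0.28, adjusted p = 0.000983), and the 33rd largest among all genes tested. Both genes were called in all 8 refits with a sample omitted, with log2 fold changes from 1.23 to 1.54 for *Phlda3* and from 1.81 to 2.30 for *Eda2r*.

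*Aen* (chromosome 7, 78895854 to 78911209), which encodes an exonuclease that promotes apoptosis, was at 85.5, 55.7, 62.2 and 57.2 CPM across *Mettl3*-CKO replicates 1 to 4. The controls were tightly grouped at 37.2, 35.8, 33.0 and 36.7 CPM, and the log2 fold change was 0.87 (SE 0.13, adjusted p = 0.00174). *Zmat3* (chromosome 3, 32334792 to 32366014) encodes an RNA-binding zinc finger protein. It was at 44.8, 38.0, 30.5 and 34.5 CPM across *Mettl3*-CKO replicates 1 to 4, against 16.7, 24.2, 21.6 and 27.0 CPM across control replicates 1 to 4. The groups did not overlap (log2 fold change 0.72, SE 0.15, adjusted p = 0.0104), but without *Mettl3*-CKO replicate 1 the adjusted p was 0.0518.

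Of the 2 stress genes, *Sesn2* was called and *Trp53inp1* was not. *Sesn2* (chromosome 4, 132492032 to 132510501) encodes sestrin 2, which limits oxidative damage and mTORC1 signalling and is also a target of the stress factor ATF4. It was at 18.9, 13.2, 13.02 and 11.97 CPM across *Mettl3*-CKO replicates 1 to 4, against 9.90, 9.31, 7.76 and 7.61 CPM across control replicates 1 to 4, a non-overlapping rise with a log2 fold change of 0.72 (SE 0.16, adjusted p = 0.0157). *Trp53inp1* (chromosome 4, 11156431 to 11174379) encodes a nuclear protein that p53 induces under stress. It was at 124, 117, 130 and 119 CPM across *Mettl3*-CKO replicates 1 to 4, against 147, 117, 111 and 113 CPM across control replicates 1 to 4. The groups overlapped and control replicate 1 was the highest of the 8 samples (log2 fold change 0.01, SE 0.10, adjusted p = 0.978). For the 6 genes with non-overlapping rises the exact permutation test gave p = 0.0286 each, the smallest it can give.

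**Figure D2:**
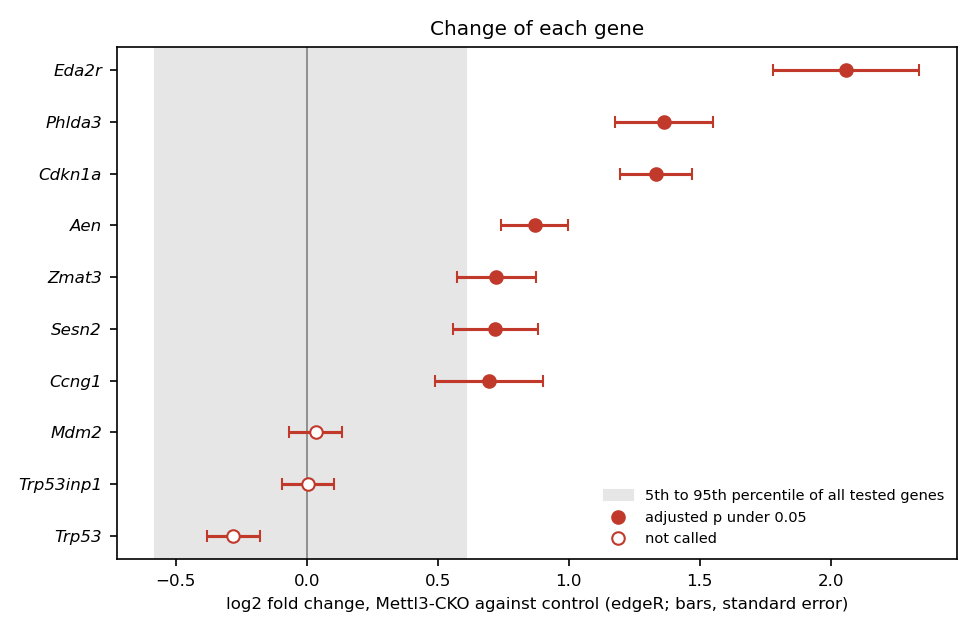
Log2 fold change of each of the 10 genes, *Mettl3*-CKO against control (x axis; bars, SE), with filled points for an adjusted p-value under 0.05. The grey band holds the 5th to 95th percentiles of all tested genes, from -0.58 to 0.61, and all 7 filled points lie beyond its upper edge.

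Compared per length of gene (FPKM, group means, from the deposited gene lengths), the order of levels differed between the groups. In controls *Trp53inp1* (18.8), *Mdm2* (18.2) and *Trp53* (16.7) were highest, followed by *Ccng1* (11.96) and *Cdkn1a* (8.69), with overlapping samples between each neighbouring pair. *Aen* (6.15) was set apart from *Cdkn1a* above and *Phlda3* (3.05) below, *Sesn2* (2.49) and *Zmat3* (1.96) overlapped their neighbours, and *Eda2r* (0.422) was lowest and apart. In *Mettl3*-CKO retinas *Cdkn1a* (21.9) was the highest. Its range overlapped that of *Ccng1* (19.4), which overlapped *Trp53inp1* (18.9) and that in turn *Mdm2* (18.7). *Trp53* (13.7) was apart from *Mdm2* and overlapped *Aen* (11.2), which overlapped *Phlda3* (7.88). *Sesn2* (4.10) and *Zmat3* (3.23) overlapped each other below these, and *Eda2r* (1.76) was again lowest and apart.

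The 7 raised genes ranked the *Mettl3*-CKO samples in a similar way. *Mettl3*-CKO replicate 1 was the highest of its group for 7 of 7, and replicate 2 the lowest for 4 of 7. How often each sample was the highest or lowest over all genes was not counted, so this order may not be particular to these genes. Among controls, replicate 1 was the highest for 5 of 7 and replicate 3 the lowest for 5 of 7. *Mettl3*-CKO replicate 1 had the lowest *Mettl3* level of its group (21.1 CPM) and replicate 2 the highest (29.6 CPM), although replicate 3, with 21.3 CPM, did not follow replicate 1. Summed proliferation markers were at 2955, 2892, 2732 and 2230 CPM over the same replicates 1 to 4, so replicate 1 was the highest for these too, and their part in the order was not tested. Without *Mettl3*-CKO replicate 1, 5 of the 10 genes were called higher, those other than *Zmat3* and *Ccng1* of the 7, and between 6 and 7 when any other sample was omitted. Calls over all genes also fell without *Mettl3*-CKO replicate 1, from 1168 to 509 higher and from 729 to 185 lower.

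**Figure D3:**
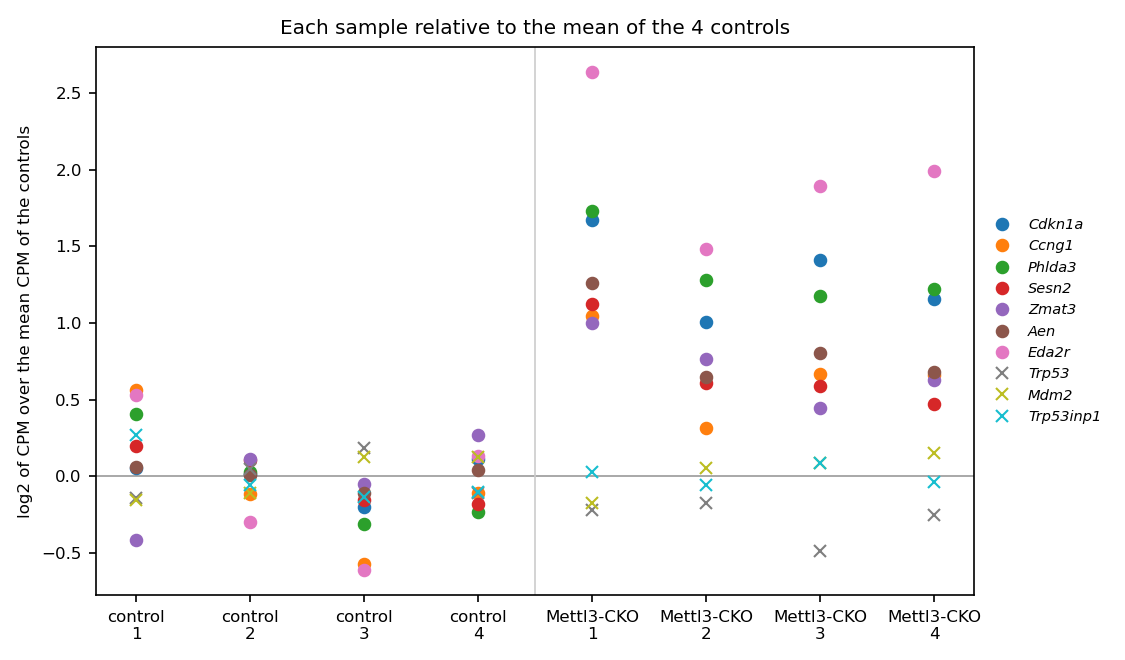
Level of each gene in each of the 8 samples (x axis) as the log2 ratio of its CPM to the mean CPM of the 4 controls (y axis); circles are the 7 genes called higher and crosses the 3 not called. *Mettl3*-CKO replicate 1 held the highest value of its group for each of the 7, and *Trp53* lay below 0 in all 4 *Mettl3*-CKO samples.

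Among the genes whose levels most resembled those of *Cdkn1a* over the 8 samples, out of 14307 genes at a mean log2 CPM of at least 1 and outside the 10, were *Nxt1*, a cofactor of mRNA export (Pearson r = 0.993), *Fam210a* (0.992), *Rftn1*, a membrane raft protein (0.991), and *Mrpl14*, a mitochondrial ribosomal protein (0.989). Since the groups form separate clusters, these correlations mainly carry the difference between groups and are given as a description. *Nxt1* averaged 66.3 ± 17.0 CPM with the deletion and 23.0 ± 1.01 CPM without it (SD, n = 4 each). On the same scale the other members gave r between 0.84 and 0.99 for the genes called higher, -0.04 for *Mdm2*, 0.17 for *Trp53inp1* and -0.80 for *Trp53*.

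Other genes of the p53 pathway were counted in lists by role. Of 65 further targets, regulators and cofactors, 61 were tested (*Fas*, *Gdf15*, *Sco2* and *Trp63* were not), of which 8 were called higher and 2 lower, with a median log2 fold change of 0.05, beside 6.49% called higher and 4.05% lower over all genes tested and a median of -0.01. The counts of the lists by role that follow are to be read against the same shares, and no list was tested as a whole. The count of 8 depended on the samples used. It was 2 without *Mettl3*-CKO replicate 1, 5 without *Mettl3*-CKO replicate 2 or 3 or control replicate 2, and 4 without control replicate 3 or 4. It was 6 without *Mettl3*-CKO replicate 4 and 12 without control replicate 1. The 2 lower calls became 0 without *Mettl3*-CKO replicate 1 and 3 without control replicate 1. They became 1 without *Mettl3*-CKO replicate 2 or 4 or control replicate 2 or 4. Higher calls over all genes moved as well, from 1168 to 509 without *Mettl3*-CKO replicate 1 and to 1882 without control replicate 1.

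Among 12 other feedback and cell cycle targets, 2 were called higher. *Psrc1*, a microtubule regulator, was at 30.5 ± 3.06 against 22.2 ± 2.46 CPM (log2 fold change 0.46, SE 0.11, adjusted p = 0.0207). *Ptprv*, a phosphatase gene linked to p53-dependent arrest, was at 1.06 ± 0.559 against 0.144 ± 0.0798 CPM (adjusted p = 0.00563), with a control mean below the level that 3 counts give. *Mdm4*, the partner of MDM2 that blocks p53, was at 256 ± 27.6 against 253 ± 16.2 CPM (adjusted p = 0.953), and *Btg2*, an antiproliferative gene, at 233 ± 26.8 against 284 ± 21.9 CPM (adjusted p = 0.0805).

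Of 11 tested apoptosis targets, 2 were called higher, with a list median of 0.08. *Tnfrsf10b*, the death receptor gene, was at 2.76 ± 0.505 against 1.32 ± 0.466 CPM (log2 fold change 1.07, SE 0.29, adjusted p = 0.035). *Bax*, which permeabilises mitochondria, was at 81.9 ± 11.3 against 61.8 ± 7.45 CPM (log2 fold change 0.41, SE 0.12, adjusted p = 0.0481). *Ei24* had a log2 fold change of 0.08 and *Trp53i11* of -0.15. The BH3-only genes *Bbc3* (0.05, adjusted p = 0.890) and *Pmaip1* (0.50, adjusted p = 0.375), named after their values had been seen, were not called.

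Of 9 DNA repair targets, 1 was called in each direction, beside 6.49% higher and 4.05% lower over all genes. *Polk*, a translesion polymerase, rose (18.3 ± 2.38 against 11.6 ± 1.42 CPM, log2 fold change 0.66, adjusted p = 0.00854) and *Ddb2*, a sensor of ultraviolet damage, fell (12.5 ± 1.82 against 16.7 ± 0.788 CPM, log2 fold change -0.42, adjusted p = 0.0456). *Pcna* (0.23) was not called. Of 8 tested metabolic and stress targets, *Rps27l* rose (76.3 ± 10.1 against 60.2 ± 2.84 CPM, log2 fold change 0.34, adjusted p = 0.0495) and *Trp53inp2*, an autophagy gene, fell (108 ± 15.1 against 158 ± 22.4 CPM, log2 fold change -0.55, adjusted p = 0.0153). *Sesn1*, the sestrin most often linked to p53, was at 73.0 ± 3.17 against 89.8 ± 11.6 CPM and was not called (adjusted p = 0.0767), nor was *Ddit4* (log2 fold change 0.02).

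Upstream of p53, 2 of 21 tested genes were called higher, beside 6.49% of all genes tested. *Chek1*, the replication checkpoint kinase, rose from 11.1 ± 2.37 to 18.7 ± 3.10 CPM (log2 fold change 0.76, SE 0.17, adjusted p = 0.0144). *Usp10*, which removes ubiquitin from p53, rose from 88.9 ± 6.34 to 117 ± 14.0 CPM (log2 fold change 0.40, SE 0.10, adjusted p = 0.0235). The ribosomal protein genes *Rpl5* (0.12) and *Rpl11* (0.05), whose products bind MDM2, were not called.

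Downstream of p21, no listed gene was called lower, beside 4.05% of all genes tested. In lists this short, having none called lower is not far from that share. Of the 10 cyclins and kinases that p21 binds, *Ccne1*, the G1/S cyclin, was called higher (20.97 ± 3.98 against 14.2 ± 2.05 CPM, log2 fold change 0.56, adjusted p = 0.0365) and none lower. *Ccnd1* (0.35) and *Cdk4* (0.07) were not called. Of 15 G2/M genes known to be repressed through p21 and the DREAM complex, 5 were called higher (*Cenpf*, *Birc5*, *Aurka*, *Ttk* and *Ect2*) and none lower, with a median log2 fold change of 0.33. The highest of them, *Cenpf*, a kinetochore gene, was at 294 ± 61.2 against 152 ± 18.7 CPM (log2 fold change 0.96, adjusted p = 0.0014). *Ccnb1* (0.23) and *Bub1b* (0.31) were not called. These genes are also markers of dividing cells, whose summed level is given above. Of 16 ATF4 stress response genes, *Psat1*, a serine synthesis enzyme, and *Sesn2* were called higher and none lower (list median 0.05). *Psat1* was at 140 ± 11.4 against 101 ± 7.81 CPM (log2 fold change 0.47, adjusted p = 0.00684), and *Atf4* itself had a log2 fold change of -0.28 (adjusted p = 0.161).

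**Figure D4:**
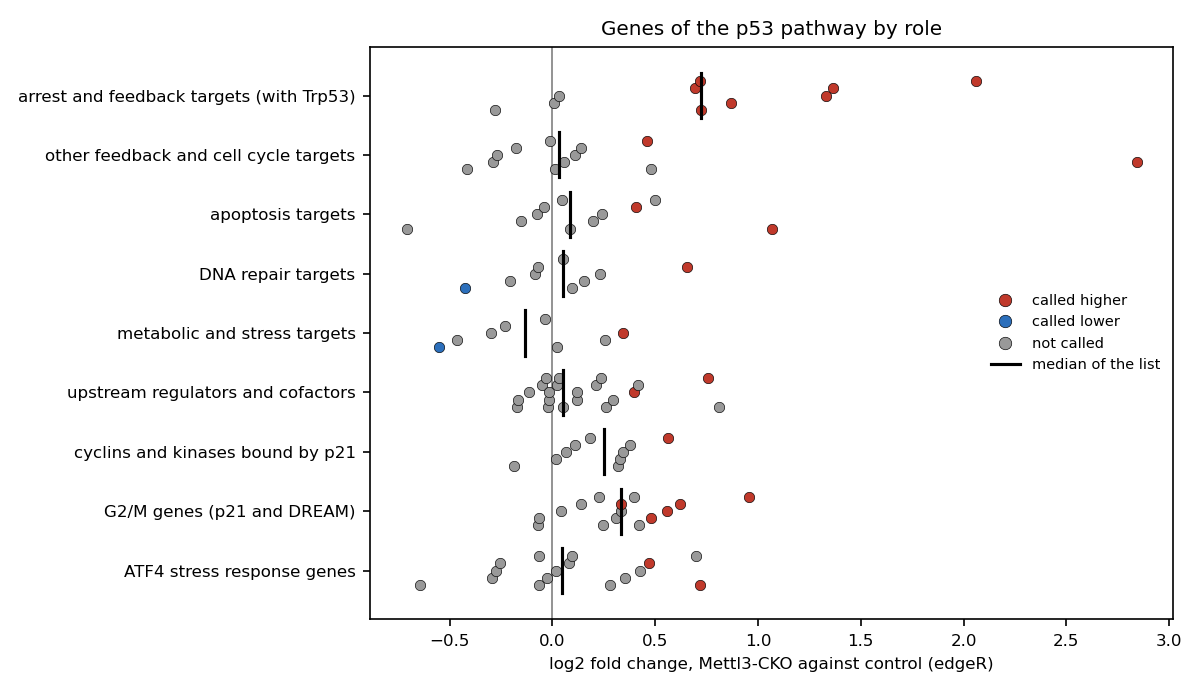
Log2 fold change (x axis) of every tested gene of each list (rows), red for genes called higher, blue for genes called lower and grey for genes not called, with a black line at the list median. The top row, the 10 genes described here, has a median of 0.72. The medians of the 5 lists of p53 targets and regulators under it lie between -0.13 and 0.08. Those of the cyclins and kinases bound by p21, the G2/M genes and the ATF4 genes are 0.25, 0.33 and 0.05.

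METTL3 places N6-methyladenosine on mRNA at a short consensus, so its most frequent core, GGACT in DNA letters, was counted on the sense strand of the longest coding GENCODE transcript of each gene. The 7 genes called higher had between 1.14 (*Ccng1*) and 2.59 (*Sesn2*) copies per kb, with 1.92 in *Cdkn1a*. The 3 genes not called had fewer per kb, 0.636 in *Mdm2*, 0.370 in *Trp53inp1* and 0 in *Trp53*. By count the split was not clean, since *Mdm2* and *Trp53inp1* held 2 copies each, as did *Phlda3*, which was called higher. The median over 14285 tested coding genes was 1.05 copies per kb. Of those genes, 7.32% were called higher among the ones at or above the median and also 7.32% among the ones below it. A motif count says nothing about methylation of the transcript.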

How the data were processed

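The 8 retinal samples were mapped to groups by their titles, and each count column by the title or description it repeats. The authors cleaned the reads, aligned them with Hisat2 (GRCm38) and used featureCounts to assign them to genes, as the methods text states. The deposited values are raw counts per gene with no normalization. Whether strand was used in counting is not given in the sources used here. All 10 genes have the same coordinates in GENCODE M21. Genes were kept by filterByExpr, scaled by TMM and tested in R 4.3.3 with edgeR 4.0.16 (estimateDisp, glmQLFit, glmQLFTest) on all 8 samples with the group as the only term. Each standard error (SE) was taken as the absolute log2 fold change divided by the square root of F. Exact permutation tests used log2 CPM with a prior count of 2, two-sided. FPKM was computed from the deposited counts and gene lengths. DESeq2 1.42.0 (on the same filtered genes, default settings) and limma 3.58.1 (voom, with quality weights per sample) served as alternatives, as did other scalings and filters, a stricter threshold, the replicate block and leaving out samples.

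The 10 genes, the pathway and marker lists and the tests were chosen with earlier results of these data known. Named genes are the 10, *Mettl3*, up to 6 called genes per pathway list in order of p, up to 2 not called in order of level, and the 5 genes most like *Cdkn1a*. Some genes that this rule names are not reported here. In marker lists whose summed level did not overlap between groups, the genes of largest and smallest change were to be named, which is done here for proliferation and rods. The shallowest value among the 10 genes rests on 31 counts, and intervals of counting error were not used in the tests. No same-group pair of samples agreed within sampling noise (lowest chi-square 5.47 per gene).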

Additional observations from a re-analysis of the deposited data

How the results depend on the processing

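Of the 18 other settings tried for each gene, *Cdkn1a*, *Eda2r*, *Phlda3* and *Aen* stayed called higher in all 18, with log2 fold changes from 1.20 to 1.43 for *Cdkn1a*. *Sesn2* lost its call only at an adjusted p under 0.01, *Zmat3* there and without *Mettl3*-CKO replicate 1, and *Ccng1* in 9 settings. *Trp53* was called lower by limma voom (log2 fold change -0.36), without control replicate 1 (-0.32) and without control replicates 1 and 4 together (-0.40), and no setting gave it a positive value. The genes that were never called changed sign: *Mdm2* was at -0.0061 without *Mettl3*-CKO replicate 4, at -0.015 without control replicate 1 and at -0.00024 without control replicate 2, its lowest and highest being -0.015 and 0.10, and *Trp53inp1* was at -0.0012 with upper quartile scaling and ran from -0.031 to 0.11 over the refits with a sample omitted.

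The number of the 10 called higher was 4 at an adjusted p under 0.01, and the number called lower was 1 with limma voom and without control replicates 1 and 4 together, and from 0 to 1 over the refits with a sample omitted. The other pathway genes called higher and lower were 13 and 6 with limma voom, 2 and 0 at an adjusted p under 0.01, 4 and 1 without control replicates 1 and 4 together, and 8 and 6 with DESeq2; over the refits with a sample omitted they ran from 2 to 12 and from 0 to 3. All genes called higher and lower numbered 1168 and 729, against 2142 and 1568 with limma voom, 439 and 147 at an adjusted p under 0.01, and from 509 to 1882 and 185 to 1289 over the refits with a sample omitted. The cause was not tested. The groups share replicate numbers, but same-numbered samples did not deviate together (correlations from -0.11 to 0.25, and 2 of 4 *Mettl3*-CKO samples closest to their own number), so the numbers were not taken as pairs. With the replicate block, 7 of the 10 genes were called higher and 0 lower, 5 other pathway genes higher and 1 lower, and 1198 and 660 of all genes. With library totals in place of TMM, the exact permutation p of *Trp53* was 0.0571.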

Other observations

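The long noncoding RNA gene *Trp53cor1*, which lies upstream of *Cdkn1a* on chromosome 17 (29057430 to 29079179) and is known as a p53-induced transcript, was looked up after the values of *Cdkn1a* had been seen. It held 19, 4, 11 and 17 counts in *Mettl3*-CKO replicates 1 to 4 and 4, 4, 8 and 11 counts in control replicates 1 to 4, and the groups overlapped (adjusted p = 0.349 in edgeR). *Wrap53*, which starts next to *Trp53* on the opposite strand, was at 23.2 ± 1.38 against 24.8 ± 2.08 CPM (SD, n = 4 each; adjusted p = 0.601), also looked up afterwards.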
